A study of Mus musculus with 4 samples.

Results

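The T-cell zone spots of popliteal lymph nodes (PLNs) from WT and TNF-Tg mice were 309 of the 2057 spots that held at least 1000 unique molecular identifiers (UMIs), out of 6119 spots under tissue. They were chosen by measured values. In every such spot the UMIs of 9 score genes (Cd3d, Cd3e, Cd3g, Trac, Trbc2, Il7r, Lef1, Tcf7 and Bcl11b) were summed and divided by the spot's total, and the top 15% of each capture area were taken as T-cell zone spots. This gave 41 of 273 spots on the WT area, 90 of 601 on the Early area, 87 of 579 on Advanced area 1 and 91 of 604 on Advanced area 2. All remaining spots of at least 1000 UMIs, 1748 in number, are called other spots.

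The PLN drains the ankle, and the study asked how its tissue changes as arthritis develops in mice that overexpress TNF. Frozen sections were placed on the 4 capture areas of a Visium slide, where polyadenylated RNA is caught by barcoded spots, each of which can cover several cells. All mice were males on the C57BL/6 background, and their PLNs had been located with Evan's blue dye injected into the hindpaw. The WT area carried 10 nodes from 5 mice aged 5.5 months. The Early area carried 6 nodes from 3 TNF-Tg mice of the 3647 line, also aged 5.5 months, and Advanced areas 1 and 2 each carried 6 nodes from 3 TNF-Tg mice of the same line, aged 8.5 to 9 months. Nodes of several mice were pooled on an area, and spots are not replicates, so UMIs were summed over the spots of an area. WT and Early had 1 area each, which means that condition and area cannot be told apart for them. The Advanced mice were also older than the WT and Early mice, so age cannot be told apart from condition wherever Advanced is compared.

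The paracortex, or T-cell zone, of a lymph node is where naive T cells enter from the blood and scan dendritic cells for antigen. Fibroblastic reticular cells hold them there with the chemokines CCL19 and CCL21, which bind CCR7 on T cells and on arriving dendritic cells. B cells instead follow CXCL13, made by follicular dendritic cells and related stroma, through CXCR5 into the neighbouring follicles.

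Promoter sequences are shown for genes of both kinds that mark the T-cell zone, namely T-cell receptor genes and a stromal chemokine gene whose RNAs were high in the same spots. They are the 250 bases before the RefSeq transcript start in GRCm38.p6, written 5′ to 3′ on the strand of the gene, with capitals at AGGAAG or its reverse complement CTTCCT, the core bound by ETS factors, and at TGTGGT or its complement ACCACA, the core bound by RUNX factors. Cd3d encodes the CD3 delta chain of the T-cell receptor complex and lies head to head with Cd3g on chromosome 9, the sequence being chr9:44981536-44981785 on the plus strand. Lat encodes the membrane adaptor on which receptor signalling complexes form (chr7:126369569-126369818, minus strand), and Lck encodes the kinase that phosphorylates the CD3 chains (chr4:129573642-129573891, minus strand, 1 of its 2 windows). Ccl21a encodes CCL21 (chr4:42773992-42774241, minus strand).
Cd3d: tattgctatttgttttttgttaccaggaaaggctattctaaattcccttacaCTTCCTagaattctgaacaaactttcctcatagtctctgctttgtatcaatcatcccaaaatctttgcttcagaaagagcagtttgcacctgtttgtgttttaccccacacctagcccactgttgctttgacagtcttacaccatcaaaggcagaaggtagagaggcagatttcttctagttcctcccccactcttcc
Lat: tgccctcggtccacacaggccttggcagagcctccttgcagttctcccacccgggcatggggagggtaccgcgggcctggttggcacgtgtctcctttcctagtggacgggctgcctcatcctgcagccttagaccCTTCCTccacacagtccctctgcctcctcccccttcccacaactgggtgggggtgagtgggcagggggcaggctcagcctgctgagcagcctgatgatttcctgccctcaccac
Lck: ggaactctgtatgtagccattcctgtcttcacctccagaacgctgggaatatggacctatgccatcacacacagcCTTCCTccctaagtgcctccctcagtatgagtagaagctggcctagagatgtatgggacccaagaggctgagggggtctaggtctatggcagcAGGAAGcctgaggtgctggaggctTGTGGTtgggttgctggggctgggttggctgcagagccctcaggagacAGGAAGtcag
Ccl21a: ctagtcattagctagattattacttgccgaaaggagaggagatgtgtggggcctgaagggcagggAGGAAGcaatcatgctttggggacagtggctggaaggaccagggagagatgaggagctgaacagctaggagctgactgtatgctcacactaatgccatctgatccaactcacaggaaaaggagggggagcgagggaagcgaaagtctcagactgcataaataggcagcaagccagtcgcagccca
The ETS core was found 1 time in the Cd3d, Lat and Ccl21a windows and 3 times in the Lck window, which also held the RUNX core 1 time. The other Lck window held the ETS core 1 time and no RUNX core. On either strand the ETS core occurred in 32.3% of the windows of 27025 genes and in 4 of the 7 score genes with a window. Among the genes that were higher in T-cell zone spots, described next, 15 of 36 with a window (41.7%) held it, and among those that were lower it was 15 of 30 (50.0%). The RUNX core occurred in 15.9% of all windows, in 0 of the 7 score genes, in 10 of 36 of the higher genes (27.8%) and in 4 of 30 of the lower genes (13.3%). These shares are a description of the letters in the windows and were not tested.

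The share of spots at tissue edges was lower among T-cell zone spots than among other spots on all 4 areas, which is given as a description. A spot was counted as an edge spot when fewer than 6 of its neighbouring grid positions were under tissue. Edge spots were 51.2% of the T-cell zone spots against 72.4% of the other spots on WT, 56.7% against 64.2% on Early, 9.20% against 37.4% on Advanced 1 and 22.0% against 51.3% on Advanced 2. The spots also lay beside each other. Of the neighbours of at least 1000 UMIs that a T-cell zone spot had, 31.7% on WT, 25.5% on Early, 21.0% on Advanced 1 and 41.8% on Advanced 2 were T-cell zone spots, against 12.3%, 12.6%, 14.4% and 11.7% of the neighbours of other spots. The share was highest on Advanced 2, where the map of spots shows whole patches of them. No deposited annotation of node regions was used, so the position of these spots within the paracortex was not examined. Of 3110 different barcodes, 249 were present on all 4 areas, as the areas carry the same printed grid.

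**Figure D1:**
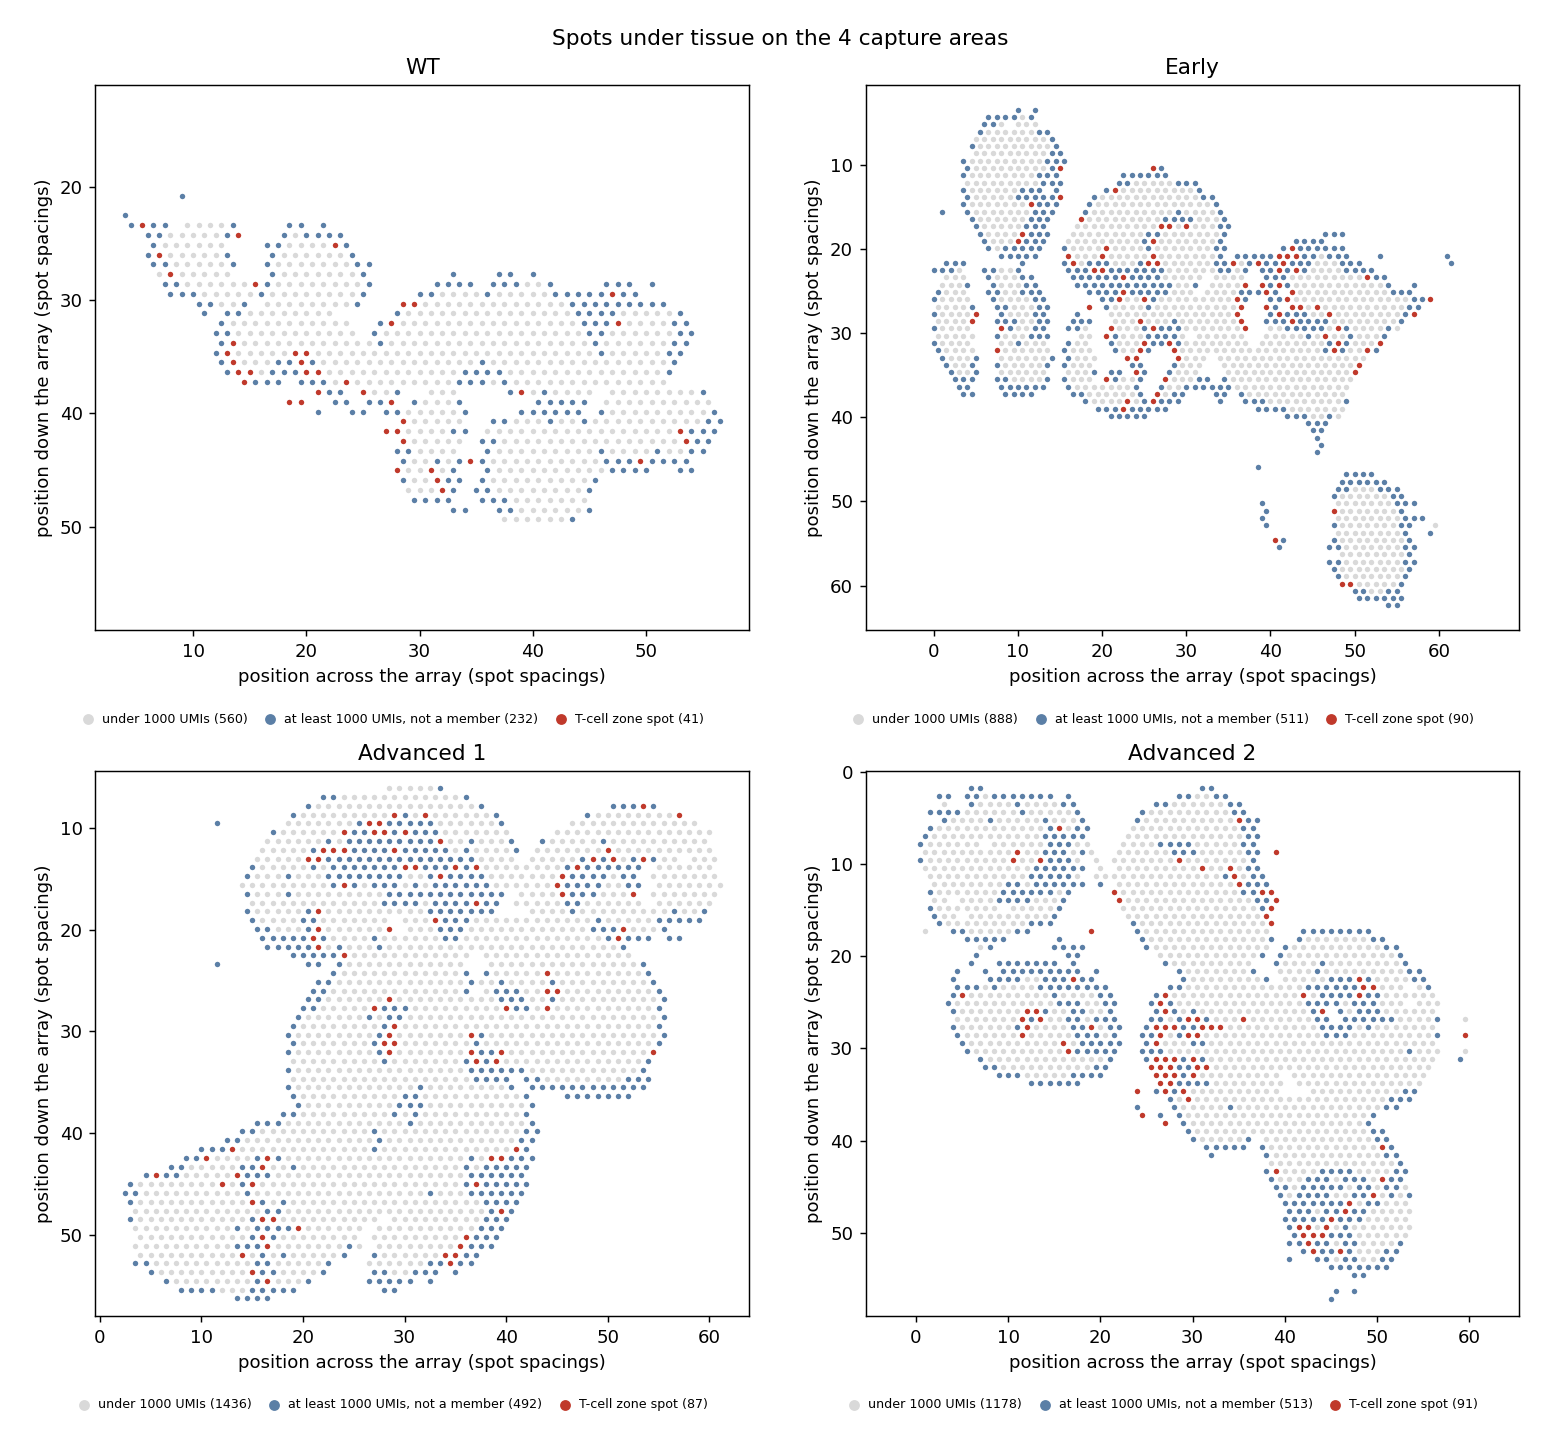
Map of the spots under tissue on each capture area, with both axes in spot spacings. Red points are the T-cell zone spots (41, 90, 87 and 91 from WT to Advanced 2), blue points the other spots of at least 1000 UMIs and grey points the spots below 1000 UMIs, which fill most of the interior of the nodes.

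The depth of a spot limited how sharply the members could be chosen. A T-cell zone spot held a median of 8 UMIs of the score genes on WT, 4 on Early, 4 on Advanced 1 and 5 on Advanced 2, and the lowest held 2 on every area. Members with 3 or fewer such UMIs made up 12.2%, 36.7%, 40.2% and 29.7% of the T-cell zone spots in the same order. Total UMIs per spot were alike in T-cell zone and other spots on WT (medians 3501 and 3577.5) and lower in T-cell zone spots on Early (2665.5 against 6430), Advanced 1 (2182 against 3422.5) and Advanced 2 (2103 against 3264). Summed over spots, the T-cell zone held 183286 UMIs on WT, 349624 on Early, 266261 on Advanced 1 and 287383 on Advanced 2, against 1504242 to 4651159 UMIs in the other spots. The share of immunoglobulin UMIs was 4.24% in T-cell zone spots against 9.16% in other spots on WT, 5.70% against 3.95% on Early, 7.46% against 6.19% on Advanced 1 and 7.40% against 8.30% on Advanced 2.

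The score that chose the members set the following values, which are given without a test. Levels are UMIs per 10000 UMIs of the spots concerned. The lowest member had a score of 19.3 on WT, 11.6 on Early, 12.6 on Advanced 1 and 13.8 on Advanced 2, and the highest other spot lay just under it, at 18.9, 11.5, 12.4 and 13.7. The members' median was 25, 15.6, 16.1 and 19.7, and that of the other spots 7.60, 4.43, 4.56 and 4.55. The threshold was thus set highest on the WT area. Trbc2, the constant region of the T-cell receptor beta chain, was the most abundant score gene, at 6.52 ± 0.961 in T-cell zone spots and 1.72 ± 0.256 in other spots (mean ± SD, n = 4 areas). Trac, the constant region of the alpha chain, was at 3.14 ± 0.966 and 0.983 ± 0.410. Lef1, a transcription factor of naive T cells, was the least abundant, at 0.651 ± 0.277 and 0.254 ± 0.0636. The other 6 score genes were between 0.808 (Bcl11b) and 2.58 (Cd3d) in T-cell zone spots.

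To measure the score genes in spots that they had not chosen, each was left out in turn and the top 15% of each area were taken on the other 8 genes. In these spots 8 of the 9 genes were higher than in the remaining spots at an adjusted p below 0.05, each on 4 of 4 areas. Between 0.714% and 1.11% of all genes were called in these 9 fits, in either direction. The largest log2 differences were those of Bcl11b (1.61 ± 0.28, standard error, adjusted p = 0.000823), a transcription factor that commits progenitors to the T-cell lineage, and of Tcf7 (1.34 ± 0.24, adjusted p = 0.000579), a transcription factor of naive and memory T cells. Trbc2 was at 5.49, 3.05, 3.40 and 4.84 per 10000 UMIs in spots ranked high on the other 8 genes, from WT to Advanced 2, and at 2.43, 1.73, 1.83 and 1.91 in the rest. The groups did not overlap for Trbc2, and the log2 difference was 1.02 ± 0.13 (adjusted p = 2.95e-06). Trac (0.99), Cd3e (0.99), Il7r (0.89), Cd3d (0.79) and Cd3g (0.77) also passed, with adjusted p between 0.00105 and 0.0385. Lef1 was higher on 3 of 4 areas with a log2 difference of 0.64 ± 0.30 and did not pass (adjusted p = 0.433). Without the Advanced 2 area 2 of the 9 genes passed, and without the Early area 5 did.

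**Figure D2:**
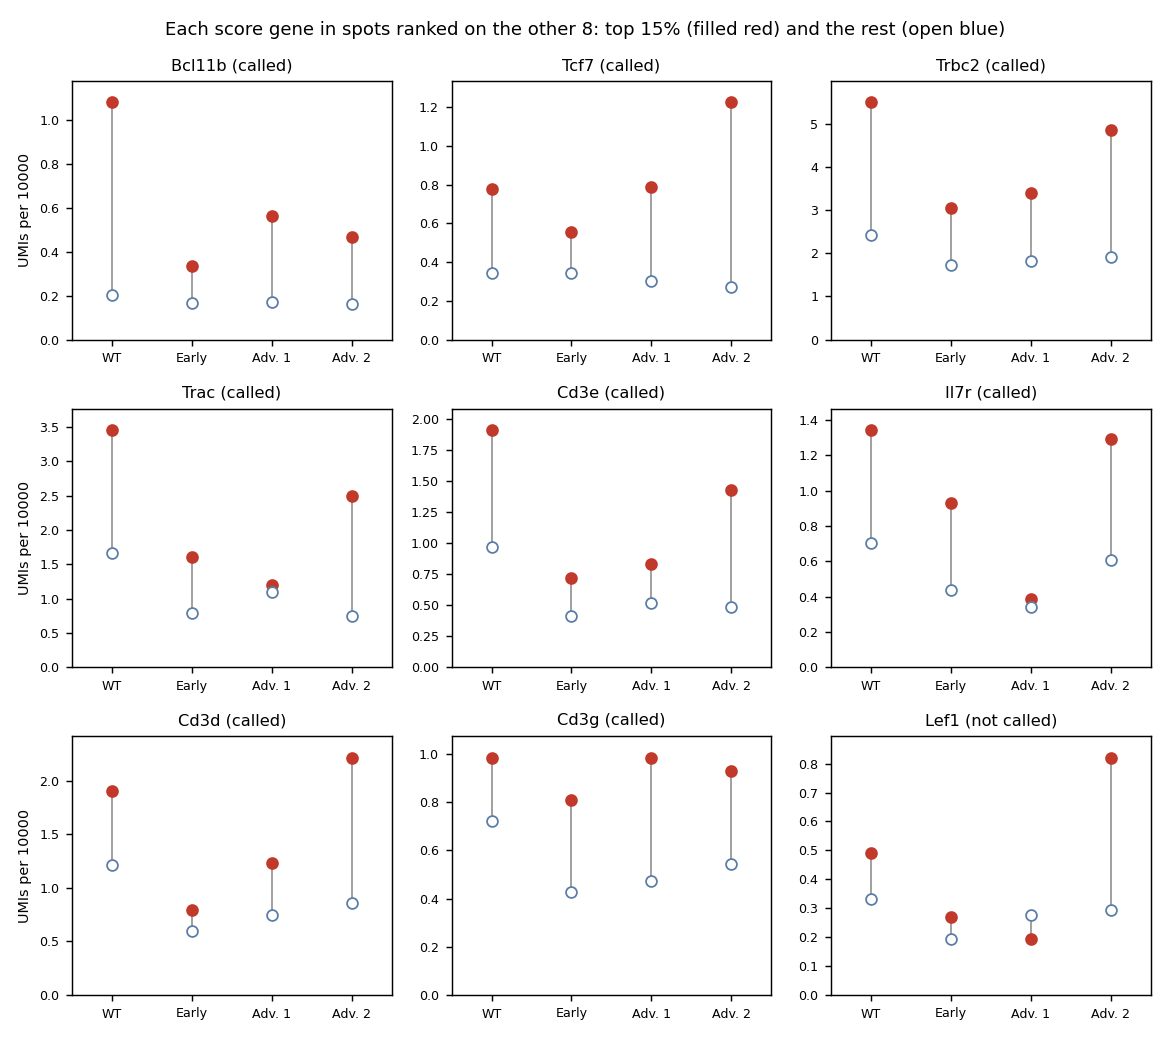
Level of each score gene, in UMIs per 10000 on a linear axis, in the spots of each area that ranked in the top 15% on the other 8 score genes (filled red) and in the rest (open blue), points joined per area. For 8 genes the red point lies above the blue on all 4 areas, and for Lef1 it lies below on Advanced 1.

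T-cell zone spots were then compared with other spots across 9876 genes, leaving out the score genes, in sums per area with the area as a block. Higher genes included 8 of 21 tested genes of the T-cell receptor and its signalling, both CD8 chains, 3 of 9 cytotoxic genes and the T-zone chemokine genes Ccl21a and Ccl19. Lower genes included 4 of 16 B-cell follicle genes, 4 of 13 macrophage genes and 2 of 4 red-cell genes. In all, 47 genes were higher (0.476%) and 40 lower (0.405%) at an adjusted p below 0.05, and 1076 had an unadjusted p below 0.05. The median log2 difference of all genes was 0.00. The score used none of these genes, but they were measured in the spots it ranked. A gene that varies with T cells from spot to spot thus follows the choice. The tests set each difference against a spread that was largely pooled over genes (3 residual and a median of 28.7 prior degrees of freedom). A gene could be called without 1 direction on all areas, as Klrd1, Timd4 and Glycam1 were. Since a spot holds several cells, more cells of a type and more RNA per cell cannot be told apart.

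The label was set beside 17 T-cell genes outside the score. Of these, 9 were called higher, against 0.476% of all tested genes, and their median log2 difference was 0.83. Cd4, Cd28 and Zap70 were not higher on all 4 areas. These genes did not choose the spots but vary with T cells as the score does, so they are no independent test of the label. They describe an enrichment and not a pure T-cell region. Genes of the T-cell receptor and its signalling were called higher in 8 of 21 tested cases and lower in none, with a median log2 difference of 0.76. Lat was at 2.56, 1.69, 1.61 and 3.17 per 10000 UMIs in T-cell zone spots from WT to Advanced 2, and at 1.01, 0.645, 0.910 and 1.01 in other spots. Every T-cell zone value of Lat lay above every value of the other spots (log2 difference 1.29 ± 0.15, adjusted p = 2.88e-06). Lck showed the same separation, with 2.35, 1.72, 1.65 and 2.16 against 0.871, 0.770, 0.939 and 0.709 (1.21 ± 0.16, adjusted p = 1.15e-05). Cd6, a surface receptor that tunes T-cell receptor signalling, differed most among the called genes of this group (1.51 ± 0.23, adjusted p = 0.000126). Trbc1, the second beta-chain constant region, was higher by 1.05, Cd247, the zeta chain, by 0.87, and the phosphatase Ptpn22 by 0.85. Thy1, a glycoprotein of the T-cell surface, was higher by 0.83 ± 0.14 (adjusted p = 0.000487). Trbc1 lies on chromosome 6 at 41538218 to 41539881, next to Trbc2 at 41546730 to 41548352, and the sequences are close enough that reads may have been split between the pair.

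Both chains of CD8 were higher in T-cell zone spots, and Cd4 was not called. Cd8a and Cd8b1 encode the chains of the co-receptor of cytotoxic T cells and are neighbours on chromosome 6 (71373427 to 71379173 and 71322788 to 71337494). Cd8a was at 1.47, 1.12, 1.61 and 1.53 per 10000 UMIs in T-cell zone spots from WT to Advanced 2, and at 0.738, 0.600, 0.755 and 0.505 in other spots. These ranges did not overlap, and Cd8a was higher by 1.11 ± 0.17 on the log2 scale (adjusted p = 0.000204) and Cd8b1 by 1.19 ± 0.19 (adjusted p = 0.000241). Cd4, the co-receptor of helper T cells that macrophages and dendritic cells also carry, was at 1.42, 2.17, 1.16 and 1.81 in T-cell zone spots and at 1.22, 1.70, 1.51 and 1.88 in other spots. It was higher on 2 of 4 areas and its log2 difference was 0.02 ± 0.15 (adjusted p = 0.983). The ratio of Cd8a and Cd8b1 UMIs to Cd4 UMIs was 2.42 in T-cell zone and 1.20 in other spots on WT, 1.03 and 0.644 on Early, 2.32 and 1.03 on Advanced 1, and 1.73 and 0.509 on Advanced 2. Its log2 change was 1.16 ± 0.456 (SD, n = 4 areas) and positive in 4 of 4 areas. The exact two-sided permutation p of 0.125 is the smallest that 4 areas allow.

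Among genes of naive and recirculating T cells, 3 of 18 were higher and none lower, with a median log2 difference of 0.30. Dapl1, an RNA of resting T cells, had the largest log2 difference among the higher genes named from this comparison (1.72 ± 0.26, adjusted p = 0.000172). Its levels were 0.436, 0.486, 0.714 and 1.57 per 10000 UMIs against 0.186, 0.211, 0.267 and 0.250. The spread among T-cell zone spots came from Advanced 2, while the lowest T-cell zone value still lay above the highest other value. Ms4a4b, a membrane protein of T cells, was higher by 1.12 ± 0.13 (adjusted p = 3.71e-06) and Gimap3, of a family of lymphocyte GTPases, by 0.62. Klf2 and Ccr7, which direct recirculation and homing, were not called. Their log2 differences were 0.35 (adjusted p = 0.149) and 0.60 (adjusted p = 0.136). None of the 10 tested genes of regulatory and follicular helper T cells was called, although their median was 0.64, and neither was any of the 5 gamma delta T-cell and innate lymphoid genes.

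Cytotoxic and NK-cell genes were called higher in 3 of 9 cases, and all 9 log2 differences were above 0 (median 0.75). Ccl5, a chemokine of memory and cytotoxic T cells and NK cells, was at 10.4, 6.52, 5.60 and 16.7 per 10000 UMIs in T-cell zone spots from WT to Advanced 2, against 3.49, 2.35, 2.51 and 3.44 in other spots. Again the ranges were apart (log2 difference 1.60 ± 0.14, adjusted p = 8.73e-08). Klrd1, a chain of the NKG2 receptors, was higher by 1.07 ± 0.23 (adjusted p = 0.0101) but on 3 of 4 areas, and Il2rb, a receptor chain for IL-2 and IL-15, by 0.90 ± 0.21 (adjusted p = 0.0251). In spots of 1000 to under 5000 UMIs, a limit chosen after seeing the data, the log2 difference of Il2rb was -0.012. Nkg7, a granule protein, had a log2 difference of 1.07 and was not called (adjusted p = 0.413). Ctsw, a protease of cytotoxic cells, was higher by 1.36 and the receptor Adgrg5 by 1.42. Slfn1 (1.34) and the protease gene Klk8 (1.33) were higher as well. The naming rule left out symbols that end in Rik, of which 2810021J22Rik (1.79) and 9330175E14Rik (1.78) were called with larger log2 differences.

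Among 12 genes of the T-zone stroma 2 were higher, and these were the chemokine genes Ccl21a and Ccl19, neighbours on chromosome 4 (42772860 to 42773993 and 42754525 to 42756577). Ccl21a was at 29.8, 8.52, 12.7 and 21.7 per 10000 UMIs in T-cell zone spots from WT to Advanced 2 and at 9.98, 3.64, 9.04 and 8.16 in other spots. It was higher on each area, but the level on Early T-cell zone spots lay below that of other spots on WT and Advanced 1 (log2 difference 1.14 ± 0.13, adjusted p = 2.88e-06). Ccl19 was at 6.38, 5.58, 4.66 and 7.62 against 4.74, 3.33, 3.55 and 3.84 (0.61 ± 0.12, adjusted p = 0.00327). Mice carry near-identical copies of both chemokine genes, and the values may include reads of those copies. Cxcl12, a chemokine of several stromal cells, was not called (0.39, adjusted p = 0.109).

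Of 18 dendritic-cell genes 3 were called higher and none lower, with 10 log2 differences above 0 and 8 below (median 0.38). Summed over the list, T-cell zone spots held 25.2 per 10000 UMIs on WT against 17.7 in other spots. On Early (22.3 against 25.1), Advanced 1 (21.1 against 22.3) and Advanced 2 (21.3 against 21.6) the sum was lower. Sirpa (-0.47) and Dnase1l3 (-0.48) were lower on every area without a call. Ccl22, a chemokine of mature dendritic cells, differed by 1.68 ± 0.31 (adjusted p = 0.0019), Apol7c by 1.44 ± 0.24 (adjusted p = 0.00044) and Cacnb3, a calcium-channel subunit, by 1.31 ± 0.25 (adjusted p = 0.00348). Apol7c was at 2.95 per 10000 UMIs in T-cell zone spots of WT and between 0.315 and 0.835 on the TNF-Tg areas. Of 10 tested genes of receptor and ligand pairs between T cells and the cells they meet, 2 were higher, Cd6 and Ccl19, while the CD6 ligand gene Alcam (-0.34, adjusted p = 0.769), the co-stimulatory receptor Cd28 (-0.08, adjusted p = 0.981) and its ligand gene Cd86 (-0.41, adjusted p = 0.470) were not called. Over all areas the T-cell zone spots held 31 UMIs of Alcam, 12 of Cd28 and 65 of Cd86, beside 85 of Cd6. Counts this low limit what the lack of a call can show. Genes of high endothelial venules, the vessels through which lymphocytes enter, were lower in 1 of 9 cases. That gene was Glycam1, a secreted mucin of these vessels, at 3.27, 4.86, 5.26 and 2.85 against 2.58, 9.30, 11.2 and 4.93 from WT to Advanced 2. It was higher in T-cell zone spots on WT and lower on the TNF-Tg areas, with a log2 difference of -0.73 ± 0.16 (adjusted p = 0.0206). The paper places these vessels in the paracortex, so Glycam1 did not follow the T-cell zone label on the TNF-Tg areas. The reason was not tested.

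**Figure D3:**
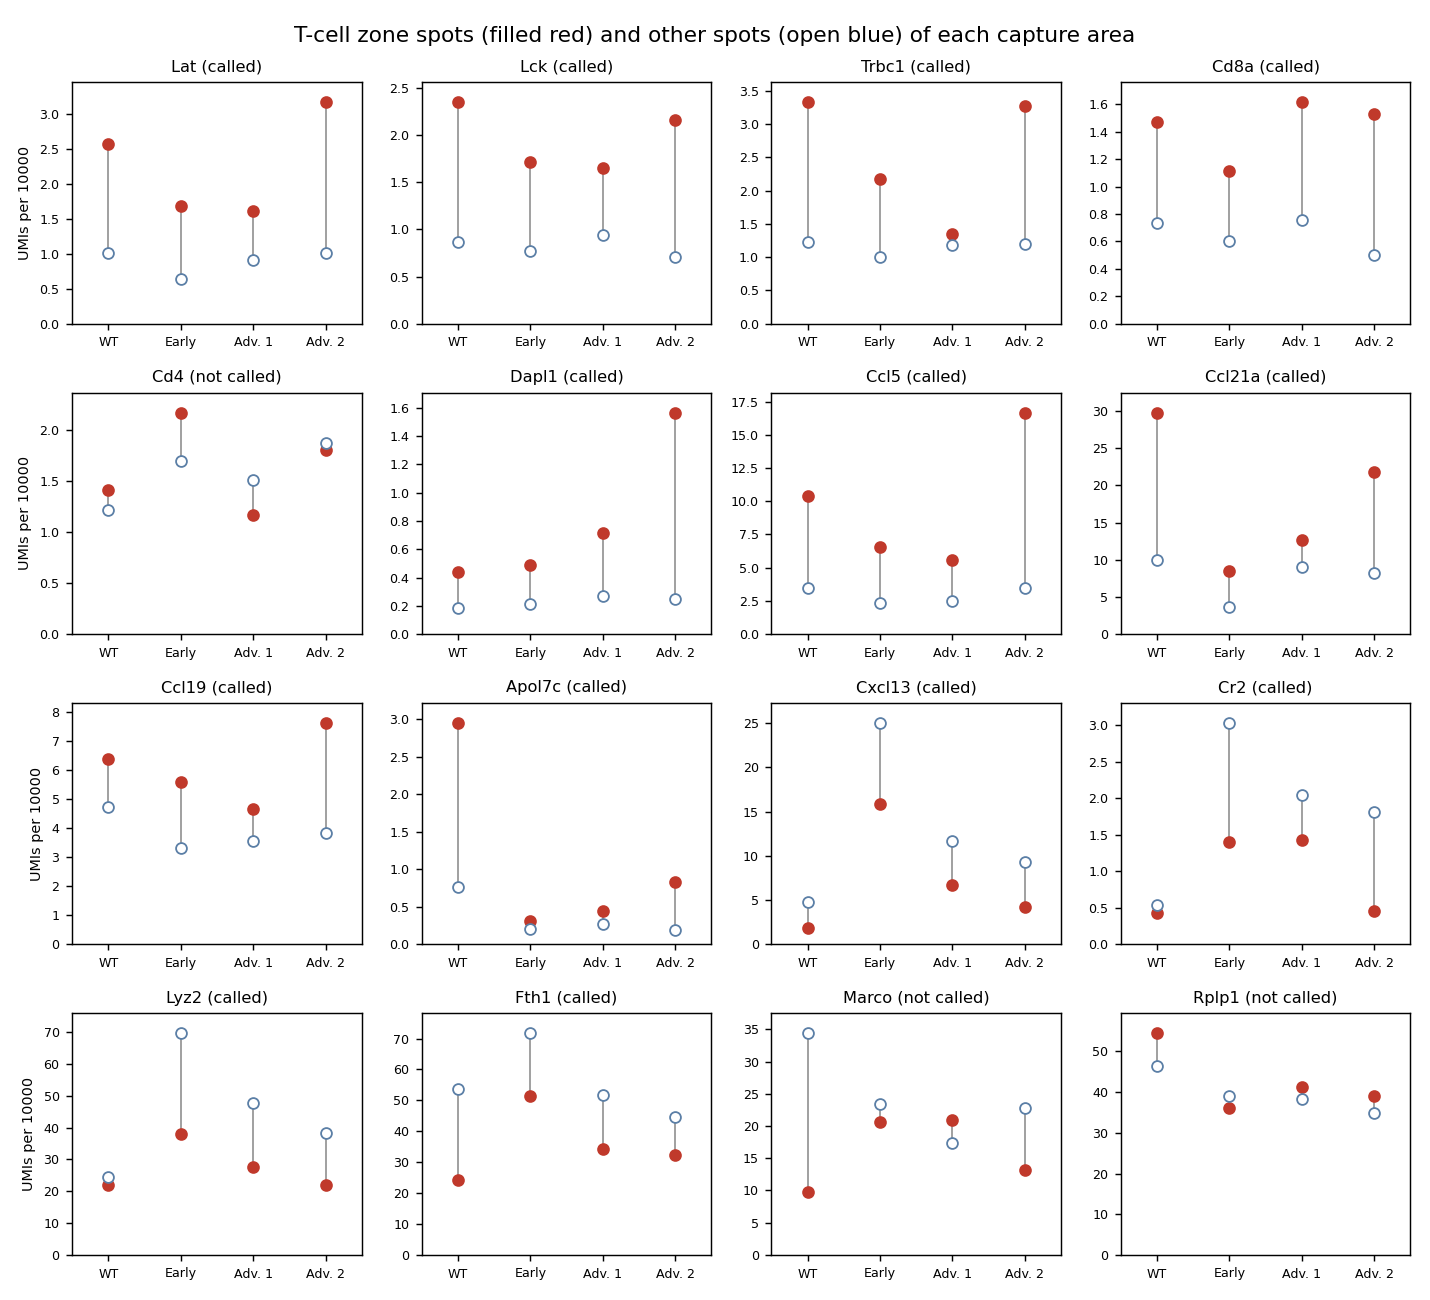
Level of 16 genes, in UMIs per 10000 on linear axes that start at 0, in T-cell zone spots (filled red) and other spots (open blue) of each capture area, points of an area joined. Lat, Lck and Cd8a are higher in T-cell zone spots on every area, Cxcl13, Cr2, Lyz2 and Fth1 are lower on every area, and Cd4, Marco and Rplp1 were not called.

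Genes of the B-cell follicle were lower in 4 of 16 cases, and all 16 log2 differences lay below 0 (median -0.37). Cr2, the complement receptor of B cells and follicular dendritic cells, differed by -1.06 ± 0.19 (adjusted p = 0.00114), Cxcr5, the receptor for CXCL13, by -0.91 (adjusted p = 0.0345), and the B-cell surface genes Cd22 and Cd79a by -0.59 and -0.52 (adjusted p = 0.0101 for both). Follicular dendritic-cell genes were lower in 3 of 9 cases, with a median of -0.69. Cxcl13 was at 1.91, 15.9, 6.69 and 4.25 per 10000 UMIs in T-cell zone spots from WT to Advanced 2 and at 4.79, 25, 11.7 and 9.32 in other spots. It was lower on 4 of 4 areas (log2 difference -0.96 ± 0.12, adjusted p = 4.92e-06), although its level varied more between areas than between the kinds of spot. Coch, a secreted protein of follicular dendritic cells, fell by 1.79 on the log2 scale, Clu, the chaperone clusterin, by 0.49, and Il22ra2, a soluble inhibitor of IL-22, by 2.05 (adjusted p = 2.32e-05). Ccl20, a chemokine and the 1 gene called among 13 TNF and NF-kB targets, fell by 1.86 on the log2 scale (adjusted p = 0.00044).

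Sinus and medullary macrophage genes were lower in 4 of 13 cases, and all 13 log2 differences were below 0 (median -0.63). Lyz2, the lysozyme of macrophages and neutrophils, was at 21.9, 38.1, 27.5 and 22.1 per 10000 UMIs in T-cell zone spots from WT to Advanced 2 and at 24.3, 69.6, 47.8 and 38.3 in other spots (log2 difference -0.70 ± 0.11, adjusted p = 0.000172). The gap was narrowest on WT. Fth1, the ferritin heavy chain that stores iron, differed by -0.71 ± 0.11 (adjusted p = 0.000241), the complement gene C1qa by -0.60 and Timd4, a receptor for dying cells, by -0.55. Lyz1, a close paralogue of Lyz2 on chromosome 10 that may share its reads, fell by 1.45 on the log2 scale. Marco, a scavenger receptor of sinus macrophages, was at 9.82, 20.7, 20.9 and 13.1 against 34.4, 23.4, 17.4 and 22.8. It was not called (-0.63, adjusted p = 0.765), being higher in T-cell zone spots on Advanced 1.

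Markers of red cells, fat and plasma cells were also measured. Summed over its list, red-cell RNA took 1.47 to 6.76 of every 10000 UMIs in T-cell zone spots against 4.19 to 16.4 in other spots, and 2 of 4 genes were called lower, Hba-a1 (-2.67 ± 0.33, adjusted p = 0.00268) and Hbb-bt (-2.03 ± 0.29, adjusted p = 7.21e-05). Haemoglobin genes have close paralogues and their reads may be split. Perinodal fat genes summed to 4.55 to 17.1 against 7.86 to 19.5, and all 10 log2 differences were below 0 (median -1.04) with none called. Plasma-cell genes summed to 24.3 against 93.8 on WT and to 20.4 to 26.0 against 14.9 to 22.8 on the TNF-Tg areas, again with none of 10 called. The WT difference lay mostly in Slpi, at 8.13 in T-cell zone and 66.7 in other spots there. None of the genes tested for germinal centre (5), lymphatic endothelium (7), neutrophils (9), mast cells (5) or muscle (4) was called, nor of the interferon-stimulated (12), immediate early (11) and heat shock (6) genes. The 19 ribosomal protein genes had a median log2 difference of 0.01, and none was called. Depth and position moved with the groups as well. The counts of called genes fell when these were held alike, but so did the UMIs in the sums. The fall differed between areas. On Advanced 1 the T-cell zone sum went from 266261 UMIs to 36026 among edge spots and 230235 among spots with tissue on all sides. The same 2 sums were 121703 and 61583 on WT, 244101 and 105523 on Early, and 111454 and 175929 on Advanced 2. On Advanced 1 the sum was 87000 after thinning and 120334 in spots of 1000 to under 5000 UMIs. Why the counts fell was not tested. Among edge spots alone 21 genes were higher and 18 lower, among spots with tissue on all sides 14 and 8, after thinning every spot to 1000 UMIs 6 and 7, and in spots of 1000 to under 5000 UMIs, a limit chosen after seeing the data, 2 and 7. After thinning the T-cell zone spots were chosen anew. Only 23 of 41 on WT, 40 of 90 on Early, 49 of 87 on Advanced 1 and 56 of 91 on Advanced 2 were also chosen at full depth.

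**Figure D4:**
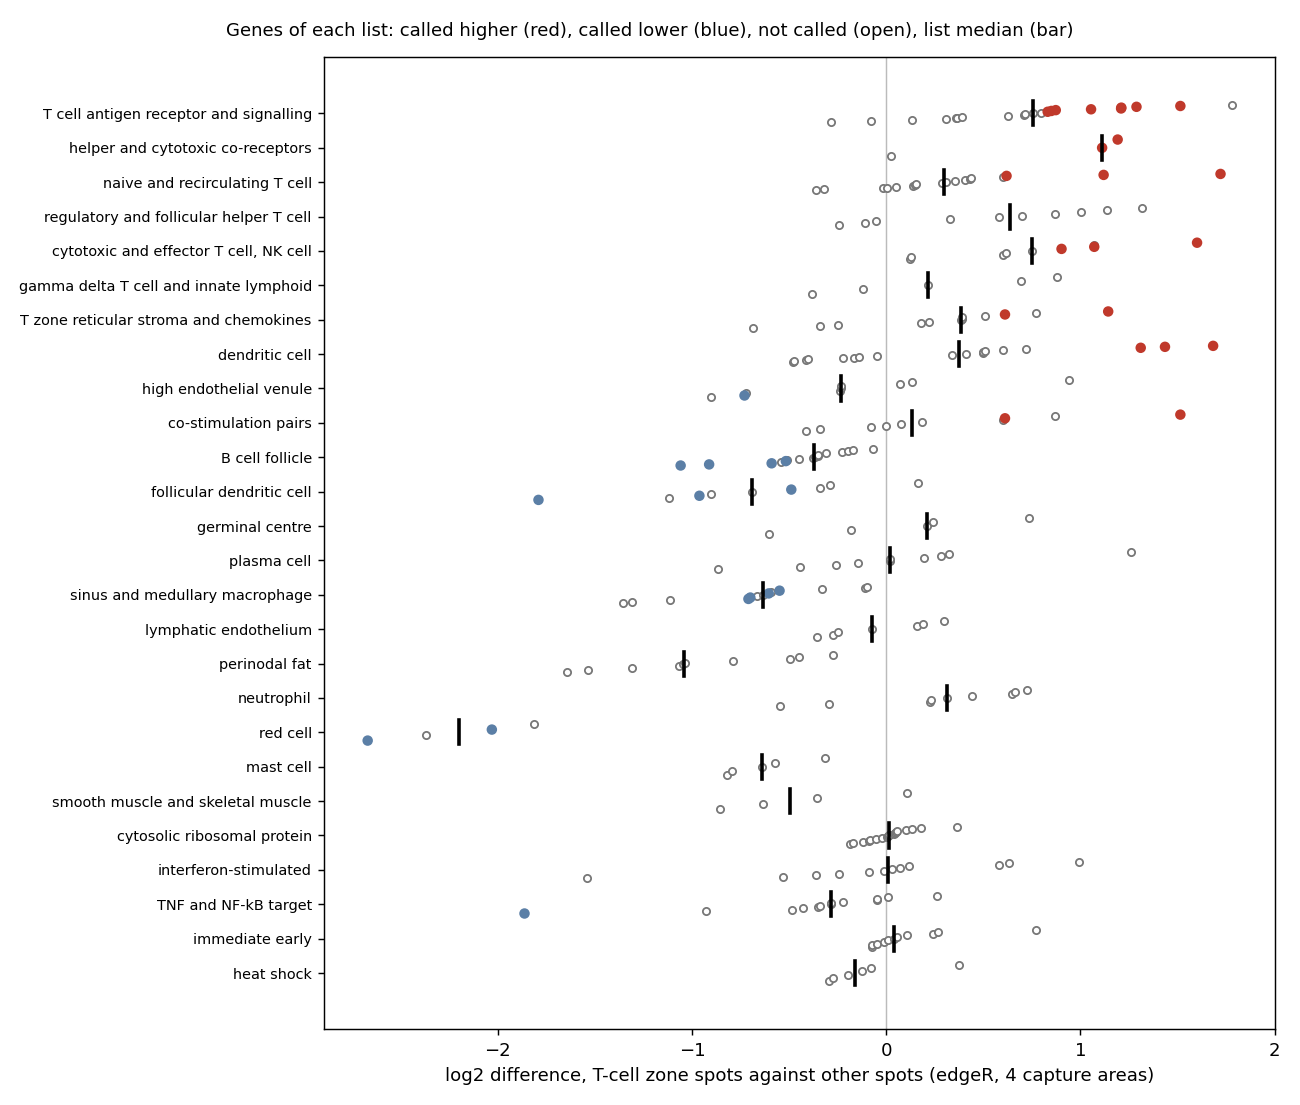
Log2 difference between T-cell zone and other spots for each tested gene of the 26 lists (horizontal axis, edgeR, 4 areas), with called genes in red (higher) or blue (lower), the rest open, and a bar at the list median. The 4 T-cell lists with called genes have medians of 0.30 to 1.11, and the B-cell, macrophage, fat and red-cell lists have all points below 0.

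Spots under 1000 UMIs had not entered the score, and those beside T-cell zone spots were compared with those that touched only other spots. Spots of at least 100 and under 1000 UMIs were used, 57 on WT, 102 on Early, 151 on Advanced 1 and 111 on Advanced 2 beside T-cell zone spots, against 135, 232, 307 and 307 beside other spots only. Of 1158 genes 2 were called (0.173%), the chemokine genes Ccl21a and Ccl5, both higher, and 115 had an unadjusted p below 0.05. Ccl21a was at 27.4, 16.9, 16.1 and 26.7 per 10000 UMIs beside T-cell zone spots and at 7.86, 7.27, 8.47 and 7.91 elsewhere, with no overlap (log2 difference 1.42 ± 0.15, adjusted p = 1.39e-06). Ccl5 was at 17.2, 6.58, 9.94 and 22.6 against 6.58, 5.04, 3.26 and 6.79 (1.38 ± 0.19, adjusted p = 6.23e-05), so that the Early value beside T-cell zone spots equalled the WT value elsewhere. The score genes Trbc2 and Trac each had a log2 difference of 1.06 and were not called (adjusted p = 0.091 and 0.321), nor were Ccl19 (0.63, adjusted p = 0.27), Cd8a (1.22, adjusted p = 0.27) and Cxcl13 (-0.86, adjusted p = 0.0861).

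Follicle spots were set beside T-cell zone spots to ask which differences were not shared by the neighbouring lymphocyte region. They were the top 15% of each area by the UMIs of 8 B-cell genes, Ms4a1, Cd79a and Cr2 among them, and spots in both sets, 3.30% to 7.78% of the T-cell zone spots of an area, were left out. Of 5979 genes 519 were higher in T-cell zone spots (8.68%) and 418 lower (6.99%), with 1598 at an unadjusted p below 0.05. Both sets were chosen by lymphocyte genes measured in the same spots, so genes that vary with B cells follow the choice here too. The spread behind the adjusted p-values was again largely pooled over genes (3 residual and a median of 120.7 prior degrees of freedom). Receptor and signalling genes were higher in 9 of 16 cases, cytotoxic genes in 4 of 5 and all 3 co-receptor genes. Cd4, which was not called against other spots as a whole, was at 1.51, 2.18, 1.23 and 1.73 per 10000 UMIs in T-cell zone spots against 0.389, 0.694, 0.503 and 0.618 in follicle spots (log2 difference 1.65 ± 0.24, adjusted p = 1.45e-08). Cd8b1 differed by 2.43 ± 0.29, Dapl1 by 3.00 ± 0.41 and Ccl21a by 1.94 ± 0.12 (adjusted p = 6.01e-30). Ccl19 had a log2 difference of 1.61 and was not called (adjusted p = 0.0873).

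Against follicle spots 7 of 12 tested macrophage genes were higher in T-cell zone spots and none was called lower, while 3 had log2 differences below 0. The largest differences were those of the mannose receptor Mrc1 (2.82 ± 0.35) and the complement gene C1qc (2.50 ± 0.21). All 5 lymphatic endothelial genes were higher, Lyve1, a hyaluronan receptor, by 2.33 ± 0.45, and so were 5 of 6 neutrophil genes, S100a8, a calcium-binding protein of neutrophil granules, by 2.38 ± 0.25. Saa3, an acute-phase protein, had the largest difference of the genes named here (3.63 ± 0.26). Of the 4 macrophage genes that were lower than in other spots, C1qa and Timd4 were higher than in follicle spots, and Lyz2 (-0.25, adjusted p = 0.0748) and Fth1 (-0.83, adjusted p = 0.144) were not called. Lower genes included the B-cell genes Cxcr5 (-1.93 ± 0.26), Blnk (-1.55 ± 0.18) and Bank1 (-1.47 ± 0.18), and 5 of 6 follicular dendritic-cell genes with Coch (-2.92 ± 0.33) foremost. Naive T-cell genes divided evenly, with Dapl1, Igfbp4, Ms4a4b and Ms4a6b higher and Gimap4, Gimap6, Foxp1 and Ets1 lower. The comparison shares its T-cell zone sums with that against other spots. C1qa and Timd4 had log2 differences of -0.60 and -0.55 from other spots and of 1.67 ± 0.25 and 1.14 ± 0.17 from follicle spots.

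The T-cell zone spots of WT, Early and Advanced were last compared with each other, in 1 fit on the 4 sums. The fit had 1 residual degree of freedom, since WT and Early had 1 area each. The Advanced areas alone gave a spread, which was taken to hold for WT and Early too. Its prior degrees of freedom had an infinite median, so for most genes the spread was that pooled over genes. Adjusted p-values of this fit thus do not measure how far the Advanced areas lay apart for a single gene. None of the 54 tested genes of the T-cell lists was called in any contrast by edgeR, with 3, 4 and 6 at an unadjusted p below 0.05 for Advanced against Early, Advanced against WT and Early against WT. Cd8a in T-cell zone spots differed by 0.47 ± 0.40, 0.08 ± 0.42 and -0.39 ± 0.49 on the log2 scale in these contrasts. The genes that were called are described contrast by contrast. The score cut was set per area, so T-cell zone spots differed in T-cell content, with 24.5 score UMIs per 10000 on WT, 15.7 on Early, 17.2 on Advanced 1 and 21.9 on Advanced 2.

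Between Advanced and Early 5 of 7172 genes were called (0.0697%), 2 higher and 3 lower in Advanced. Ighg2b, the constant region of IgG2b, was at 60.9 per 10000 UMIs on Early and at 128 and 169 on the Advanced areas (log2 difference 1.27 ± 0.22, adjusted p = 3.48e-05), and Ighg1 at 7.49, 22.0 and 16.5 (1.34 ± 0.28, adjusted p = 0.00219). Both Advanced areas exceeded Early for these genes. Saa3 was at 8.27 on Early against 1.99 and 0.905 (-2.54 ± 0.31, adjusted p = 3.22e-12). The monocyte chemokine gene Ccl12 (-1.70 ± 0.37, adjusted p = 0.00587) and Cxcl13 (-1.57 ± 0.28, adjusted p = 3.48e-05) were also lower in Advanced. Without Advanced 1 the log2 differences of Saa3 and Ccl12 were -3.21 and -1.15, and without Advanced 2 they were -2.11 and -2.72, values with no test. IgG genes are close paralogues, and reads may have been split among them.

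Between Advanced and WT 16 genes were called (0.223%), 9 higher and 7 lower. Ighg2c, the constant region of IgG2c, was at 29.2 on WT and at 103 and 102 on the Advanced areas (1.80 ± 0.24, adjusted p = 5.62e-10), and Cxcl13 at 1.91 against 6.69 and 4.25 (1.50 ± 0.37, adjusted p = 0.0277). Dendritic-cell genes were called lower in 3 of 17 cases, while 8 log2 differences of the list were above 0 and 9 below (median -0.07). Apol7c (-2.18 ± 0.42, adjusted p = 0.000315) and Fscn1, an actin-bundling protein of mature dendritic cells (-1.46 ± 0.36, adjusted p = 0.0289), had 54 and 69 UMIs on WT, and Ccl17, a chemokine of the same cells, had 20 UMIs on WT and 1 and 3 on the Advanced areas. Slpi, a protease inhibitor, had a log2 difference of -1.56 ± 0.32 (adjusted p = 0.00133), which was -2.63 without Advanced 1 and -0.95 without Advanced 2. The calcium-binding protein S100a4 had a log2 difference of -1.29 ± 0.32, and the mitochondrial leucyl-tRNA synthetase Lars2 of -1.66 ± 0.40. Gm42418, a predicted gene that overlaps ribosomal RNA sequence, was at 51.0 on WT and at 14.4 and 16.3 on the Advanced areas (-1.74 ± 0.24, adjusted p = 6.02e-10). It was at 22.5 in the other spots of WT.

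Between Early and WT, with 1 area each, 22 genes were called (0.307%), 12 higher and 10 lower in Early. Ccl21a was at 29.8 per 10000 UMIs on WT and 8.52 on Early (-1.80 ± 0.30, adjusted p = 4.57e-06). In the other spots it was 9.98 and 3.64, and a difference between the change of the T-cell zone spots and that of the other spots was not called (interaction -0.26, adjusted p = 0.978). Cxcl13 rose from 1.91 to 15.9 (3.06 ± 0.39, adjusted p = 1.77e-11), and it was higher in other spots as well. Il33, an alarmin of stromal cells, was higher by 2.41 ± 0.63 (adjusted p = 0.0487), the follicular dendritic-cell gene Clu by 1.24 ± 0.29 (adjusted p = 0.0123) and Fth1 by 1.1 ± 0.28 (adjusted p = 0.0266). Apol7c (-3.20 ± 0.55), Fscn1 (-1.60 ± 0.42), Slpi (-2.52 ± 0.40) and Ighg1 (-1.28 ± 0.31) were lower. Of the 17 tested dendritic-cell genes 9 had log2 differences above 0 and 8 below (median 0.03).

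Saa3, Hp and Ccl2 encode the acute-phase proteins serum amyloid A3 and haptoglobin and the monocyte chemokine CCL2, and they were nearly absent from T-cell zone spots of WT. Saa3 had 1 UMI there and 289 on Early, a ratio of levels of 151.5 with an exact 95% interval of 27.0 to 6005. Hp had 2 and 109 UMIs (ratio 28.6, 7.72 to 239) and Ccl2 2 and 59 (15.5, 4.10 to 131). On the Advanced areas the ratios to WT were 36.5 and 16.6 for Saa3, 12.7 and 14.0 for Hp, and 8.95 and 21.7 for Ccl2. All 3 genes were called against WT in Early and in Advanced. In the other spots of WT they were at 0.858, 1.22 and 1.04 per 10000 UMIs, above the 0.0546, 0.109 and 0.109 of the T-cell zone spots, and this low level in the WT T-cell zone enters every such ratio. The intervals cover counting error only.

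**Figure D5:**
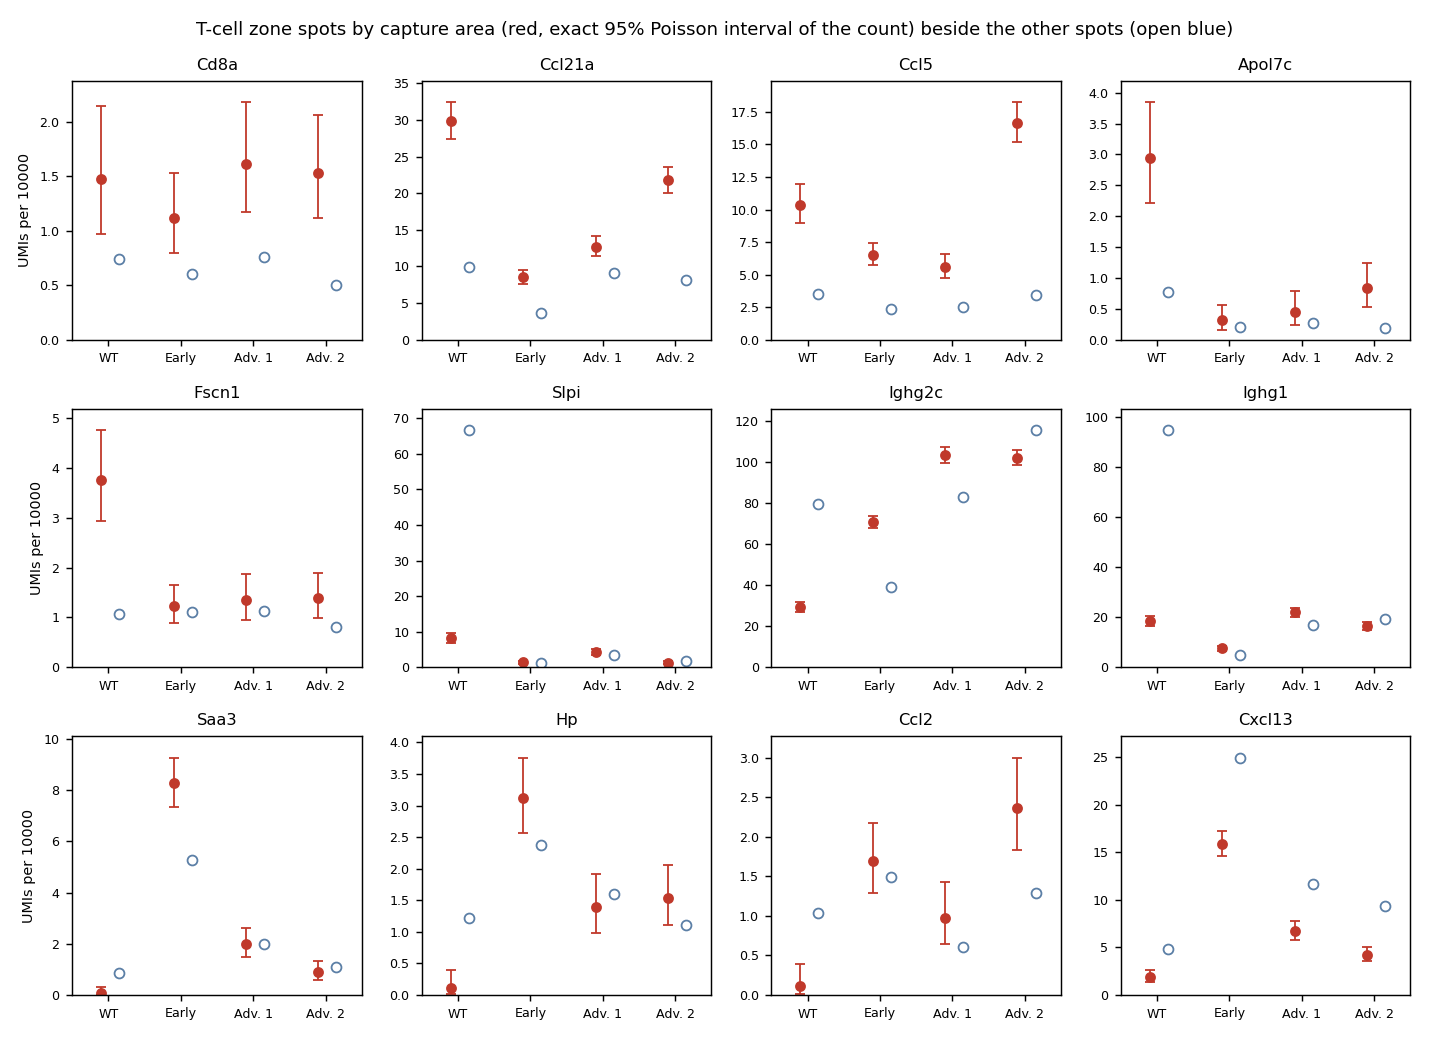
Level of 12 genes in T-cell zone spots of each capture area, in UMIs per 10000 on linear axes from 0, with exact 95% Poisson intervals of the counts (red), beside the other spots of the area (open blue). Cd8a and Ccl5 overlap between areas in part, Ccl21a, Apol7c and Fscn1 are highest on WT, and Saa3 and Cxcl13 are highest on Early.

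The calls between conditions were few and depended on the threshold of the score. With the top 20% of spots per area none of the 3 contrasts gave a called gene, and DESeq2 called 0, 2 and 2 genes for Advanced against Early, Advanced against WT and Early against WT. With a score of at least 20 per 10000 UMIs on every area, which was chosen after seeing the data and evened out the T-cell content (26.6 to 30.2 score UMIs per 10000), 1, 2 and 2 genes were called in 31, 19, 24 and 43 spots from WT to Advanced 2. Saa3 was called between Advanced and Early there, and Gm42418 and Slpi between Advanced and WT.

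Whether the difference between T-cell zone and other spots itself changed with condition was tested as an interaction. That fit too had 1 residual degree of freedom and, for most genes, a spread pooled over genes. No gene of 11664 was called between Advanced and Early (0%, 390 genes with an unadjusted p below 0.05, edgeR), 34 between Advanced and WT (0.291%) and 26 between Early and WT (0.223%). Several of the named genes were lower in T-cell zone than in other spots of WT and not lower, or less so, on the TNF-Tg areas. Ighg1 was at 18.4 and 94.6 per 10000 UMIs in T-cell zone and other spots of WT, and at 7.49 and 4.73 on Early (interaction 3.12, adjusted p = 4.36e-15). Marco was at 9.82 and 34.4 on WT and at 20.7 and 23.4 on Early (1.71, adjusted p = 0.000528). Fscn1 went the other way, at 3.76 and 1.06 on WT and 1.23 and 1.11 on Early (-1.59, adjusted p = 0.0395).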

How the data were processed

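RNA of frozen PLN sections was measured on 4 Visium capture areas, 1 for WT, 1 for Early and 2 for Advanced. The deposited files hold UMI counts per gene and spot that the authors made with Space Ranger 1.1.0 (mm10, GRCm38) and did not normalize; the submitters' notes also name Seurat 4.0.3 and R 4.1.1. Spots under tissue on the 4 areas held 1808678, 5180493, 3378219 and 3198238 UMIs for WT, Early, Advanced 1 and Advanced 2. The members and the 26 gene lists (305 genes) were chosen with earlier results of these data known.

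Spots of at least 1000 UMIs were ranked within an area by the share of the 9 score genes. UMIs were summed per area and kind of spot, and edgeR 4.0.16 (R 4.3.3, TMM, filterByExpr, robust quasi-likelihood test, Benjamini-Hochberg adjustment over all tested genes) called genes at an adjusted p below 0.05, with the capture area as a block and the score genes left out. The contrasts between conditions used the 4 sums of T-cell zone spots. DESeq2 1.42.0, other depth limits, other thresholds and omitted areas were alternatives. The scripts were tested on simulated counts. Genes were named by rule: up to 4 genes with most UMIs in each list, list genes that were called (chosen after their values were seen), and the 10 largest called differences in each direction with at least 100 UMIs and 1 direction on 4 of 4 areas, leaving out immunoglobulin genes and predicted genes; between conditions, up to 10 called genes in each direction with at least 100 UMIs. GENCODE M21 matched 32158 of 32287 features and gave coordinates. Nothing states that the pooled nodes of an area were processed apart, so areas were taken as the replicates. The spread behind the p-values was estimated between areas and largely pooled over genes. Doublet calling does not apply to spots. A few genes that entered the lists or scores are not reported here.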

Additional observations from a re-analysis of the deposited data

Results flagged for a closer look

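The difference between T-cell zone and other spots was compared between conditions by the edgeR interaction term, and the genes below passed an adjusted p of 0.05. The values are log2 interaction terms, the difference in the TNF-Tg condition less that in WT, and rest on 1 WT area and 1 residual degree of freedom. For most genes the spread behind the adjusted p was pooled over genes. No group held 4 or more areas, so no area was tested for lying far from the others of its group.

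For Advanced against WT, immunoglobulin and plasma-cell genes had terms of 2.58 (Ighg1), 1.64 (Ighg2c), 1.45 (Ighg2b), 1.30 (Jchain) and 3.26 (Slpi). Chemokine and acute-phase genes had 4.18 (Ccl2), 3.38 (Ccl12), 3.98 (Saa3) and 3.75 (Hp). Macrophage and sinus genes had 1.69 (Marco), 2.03 (Cd5l), 1.51 (C1qb), 1.50 (C1qc) and 1.66 (Lyve1). The remaining terms were 2.22 (Hsbp1), 1.56 (Col4a2) and 1.89 (Lpl). Leaving out Advanced 1 moved 6 of these 17 terms by more than their standard error, and leaving out Advanced 2 moved 5, with no change of sign. C1qc was at 0.80 without Advanced 1 and 2.14 without Advanced 2, Cd5l at 1.40 and 2.86, Marco at 1.15 and 2.20, and Ccl12 at 3.13 and 4.04.

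For Early against WT, the same kinds of gene had terms of 3.12 (Ighg1), 2.38 (Ighg2c), 2.04 (Ighg2b), 1.73 (Jchain), 3.37 (Slpi), 3.50 (Ccl2), 3.62 (Ccl12), 4.68 (Saa3), 3.96 (Hp), 1.71 (Marco) and 1.59 (C1qb). Il33 had 2.54, S100a9 1.90 and Fscn1 -1.59. Slpi was at 8.13 per 10000 UMIs in T-cell zone spots and at 66.7 in other spots of WT, and at 1.40 and 1.18 on Early. The part of the single WT area in these terms cannot be told apart from that of the genotype. In the terms for Advanced, that of age cannot be told apart either.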

How the results depend on the processing

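Against other spots, 47 genes were higher and 40 lower. The counts were 97 and 72 with spots of at least 500 UMIs, 6 and 7 after thinning to 1000 UMIs, 21 and 18 among tissue edge spots, 14 and 8 among spots with tissue on all sides, 30 and 22 with DESeq2, and 10 and 0 without the area term. In spots of 1000 to under 5000 UMIs, added after seeing the data, they were 2 and 7. The lower genes numbered 15 when spots were ranked by Pearson residual, 25 without members of 3 or fewer score UMIs (added after seeing the data) and 122 with no filter on low counts. Leaving out an area gave 19 to 53 higher and 16 to 51 lower genes (23 and 16 without Early, 19 and 18 without Advanced 2), and 2 to 7 called score genes (5 without Early, 2 without Advanced 2). Over 796 alternative values of 44 called genes, 541 stayed called, 254 kept their direction below the threshold, and Il2rb turned to -0.012 in spots of 1000 to under 5000 UMIs. The cause was not tested.

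Beside T-cell zone spots, 9 genes were called with no filter, and 2 to 6 without an area (6 without Advanced 1). Against follicle spots, DESeq2 called 194 higher and 131 lower, and leaving out an area gave 291 to 553 and 253 to 412 (291 and 253 without Early).

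For Advanced against Early, Advanced against WT and Early against WT, the top 20% of spots gave 0 called genes each, DESeq2 0, 2 and 2, and a score of at least 20 per 10000 UMIs 1, 2 and 2. Without immunoglobulin genes Advanced against Early gave 3. With spots of at least 500 UMIs, Advanced against Early gave 8 and Early against WT 11. The top 10% gave 4 for Advanced against WT and 9 for Early against WT. The interactions with at least 500 UMIs gave 2, 21 and 16 genes, where S100a9 for Early against WT turned to -0.85, and with the top 20% 8 for Advanced against Early and 41 for Early against WT. Without Advanced 1, 3 of 5 named genes for Advanced against Early and 1 of 13 for Advanced against WT moved by more than their standard error, and without Advanced 2 it was 3 and 4, none with a change of sign. These fits had no residual degree of freedom and gave no test. Conditions could not be paired, because their nodes came from different mice. Depth limits the low genes: a T-cell zone sum of 183286 UMIs leaves few counts for genes near 0.1 per 10000.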
